A study of Mus musculus with 22 samples.

Results

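The distal 14 Mb of mouse chromosome 11 (mm10, chr11:108000001-122000000) was described in mammary glands of MMTV-PyMT mice and of normal FVB mice, as 7 bins of 2 Mb and as gene promoters. The region was selected on measured values, because its read coverage was higher in the late carcinomas than in the controls. Coverage at late carcinoma is therefore given as a description, and the calls on it show how the region was chosen and support nothing. Coverage at the earlier stages, and methylation at every stage, did not choose the region. It held 17443 CpG positions covered in all 22 samples, of 1140418 such positions on chromosomes 1 to 19 and X, and the rest of chromosome 11 held 73304. A curated transcript start lay in the region for 281 genes. Of these, 220 had at least 3 covered positions within 2 kb of a start and were tested among 16407 promoters in all, and 61 were left out. The positions were denser than on the rest of the chromosome, at 1246 against 678.7 per Mb, and 57.2% against 64.4% of them lay in promoters, 10.3% against 9.54% in other exons, 21.3% against 16.7% in other introns and 11.3% against 9.39% between genes.

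Tumour cells often carry extra copies of chromosome arms. In bisulphite sequencing a duplicated segment yields more reads relative to the rest of the genome, while methylation is a proportion of reads and does not by itself follow copy number. Distal chromosome 11 of the mouse carries genes of growth factor signalling (Grb2), cell division (Birc5, Tk1), Polycomb repression (Cbx2, Cbx8), Wnt feedback (Axin2) and fatty acid synthesis (Fasn).

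DNA methylation was measured by enhanced reduced representation bisulphite sequencing (ERRBS), which reads CpG-rich fragments left by a restriction enzyme. The PyMT mice were, by the study's methods, heterozygous females carrying the polyoma middle T antigen under the MMTV promoter, which is active in mammary epithelium, on the FVB/N background. Hyperplasia was taken at week 6 (2 PyMT samples), adenoma/MIN at week 8 (3 samples), early carcinoma at week 10 (3 samples) and late carcinoma at week 12 (2 samples, replicates 1 and 3), and each of the 4 weeks had 3 age-matched FVB females without the transgene. The tissue was whole gland or tumour, so that in a bulk sample few cells with many copies and many cells with few copies cannot be told apart.

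Sequences are shown for promoters with large methylation differences at late carcinoma, 2 higher and 2 lower, each as the 250 bases before the transcript start on the strand of the gene (RefSeq, GRCm38.p6, the assembly behind mm10). They were picked, after their values were seen, among promoters of the region with a sequence in the RefSeq table and a covered CpG in these bases. Capitals mark the CpGs covered in all 22 samples.
Gm39468 (chr11:113785924-113786173, plus strand): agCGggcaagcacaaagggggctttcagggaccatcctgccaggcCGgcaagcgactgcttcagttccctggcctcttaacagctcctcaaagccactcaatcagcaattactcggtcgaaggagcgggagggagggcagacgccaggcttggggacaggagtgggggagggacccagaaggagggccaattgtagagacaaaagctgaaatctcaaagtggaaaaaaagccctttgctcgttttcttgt
Ptchd3 (chr11:121829968-121830217, plus strand): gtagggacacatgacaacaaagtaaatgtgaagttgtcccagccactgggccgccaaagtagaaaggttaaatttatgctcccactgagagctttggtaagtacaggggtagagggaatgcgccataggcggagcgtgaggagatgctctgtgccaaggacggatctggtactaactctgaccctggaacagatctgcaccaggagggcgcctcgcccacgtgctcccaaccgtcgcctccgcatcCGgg
Cbr2 (chr11:120732022-120732271, minus strand): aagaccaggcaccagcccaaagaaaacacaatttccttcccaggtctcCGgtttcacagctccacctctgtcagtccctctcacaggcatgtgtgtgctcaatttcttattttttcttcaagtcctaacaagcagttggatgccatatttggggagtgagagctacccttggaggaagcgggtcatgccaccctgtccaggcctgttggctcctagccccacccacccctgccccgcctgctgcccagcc
Enpp7 (chr11:118987931-118988180, plus strand): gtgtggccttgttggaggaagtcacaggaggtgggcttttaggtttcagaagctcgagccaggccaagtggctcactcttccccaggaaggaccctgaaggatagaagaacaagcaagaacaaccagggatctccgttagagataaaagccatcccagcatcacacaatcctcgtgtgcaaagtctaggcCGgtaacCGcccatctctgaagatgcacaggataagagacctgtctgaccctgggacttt

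At the marked CpGs of Gm39468, methylation was 46.2% in late carcinoma and 15.3% in the week 12 controls, and at the marked CpG of Ptchd3 it was 93.9% and 84.9%. At the marked CpG of Cbr2 it was 10.8% against 29.1%, and at those of Enpp7 66.1% against 92.1%. The late carcinoma value of Gm39468 is the mean of 4 positions that differ widely. Of these, 113785969 had 2.239% and the other strand of the same CpG, 113785970, had 59.73%. Mature microRNAs are shown for Mir338 and Mir3065, whose genes lie on opposite strands inside Aatk and whose surroundings lost methylation at late carcinoma, with the seed (bases 2 to 8) in capitals.
mmu-miR-338-3p (chr11:120014781-120014802, minus strand): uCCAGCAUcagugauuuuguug
mmu-miR-338-5p (chr11:120014816-120014837, minus strand): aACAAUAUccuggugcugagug
mmu-miR-3065-5p (chr11:120014780-120014801, plus strand): uCAACAAAaucacugaugcugg
The 3 seeds differ from each other.

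Between 1314077 and 1435757 CpG positions were deposited per sample, at a mean coverage of 60.2 to 79.2 reads, and all 20 pairs of samples of the same group differed beyond the sampling noise of their reads. The tissue was checked against promoters of cell type markers. All 10 luminal epithelial marker promoters tested had lower mean methylation in PyMT glands than in controls at each stage, and 7, 7, 9 and 7 of them passed the test in hyperplasia, adenoma/MIN, early and late carcinoma. Their mean methylation lay between 15.6% and 21.97% in the 12 controls, and was 5.96% and 7.44% in the late carcinomas. Of 5 adipocyte promoters 2 were called lower and 1 higher at late carcinoma, of 2 leukocyte promoters 1 was called lower and 1 higher, and of 5 endothelial promoters 1 was called lower and 2 higher. The part of these cell types in the methylation results below was not tested. Adenoma/MIN replicate 1 stood apart on chromosome X, where its log2 coverage relative to the 12 controls was -0.97, against -0.065 to 0.040 in all other samples. This goes against the stated sex or identity of the sample, which was not checked further. Without it adenoma/MIN had a mean methylation difference in the region of -1.37 instead of -1.09 points, 5 instead of 4 bins called lower, 15 instead of 17 promoters called higher and 30 instead of 29 lower. A cluster of 28 positions at chr11:109011699-109011984 had a mean coverage of 1319 to 26180 reads and held 14.5% to 22.2% of all reads of the region. Coverage values are therefore also given without the 1% of autosomal positions with the highest mean coverage (above 164.9 reads, 188 positions of the region).

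Relative coverage was the share of a sample's autosomal reads that fell in the region, as a log2 ratio to the mean of the 12 controls. The region held 2.07% and 2.17% of autosomal reads in the late carcinomas (replicates 1 and 3), and 1.74% to 1.82% in the 12 controls. Without the most covered positions the log2 ratio was 0.24 in replicate 1 and 0.35 in replicate 3, which are ratios of 1.18 and 1.27, and it lay between -0.013 and 0.017 in the controls. Both late carcinomas stood above all controls and above the other 8 PyMT samples.

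Before late carcinoma the ratios were small. They were 0.015 and -0.000545 in hyperplasia, 0.062, 0.058 and 0.028 in adenoma/MIN and 0.13, 0.032 and 0.038 in early carcinoma. Early carcinoma replicate 1 stood above the other samples of its stage, and the mean of the stage over all positions, 0.063, was 0.033 without it. The mean of adenoma/MIN over all positions, 0.065, was 0.038 without replicate 1. That sample is the one that stood apart on chromosome X. Without the most covered positions, all adenoma/MIN and early carcinoma samples lay above the highest control and the hyperplasia samples lay within the controls. Over all positions early carcinoma replicate 2, at 0.029, lay below the highest control, at 0.031.

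The ratios on the rest of chromosome 11 were 0.086 and 0.037 in the late carcinomas, 0.040, 0.037 and 0.031 in adenoma/MIN and 0.051, 0.029 and 0.016 in early carcinoma, against -0.0039 to 0.0047 in the controls. The PyMT samples from week 8 on thus lay above all controls on the rest of the chromosome as well. The hyperplasia samples, at 0.0048 and 0.0074, lay just above the highest control, at 0.0047. Over all positions they lay within the controls, at -0.0014 and 0.0061. In both late carcinomas the distal ratio was the larger. Over the whole of chromosome 11 the late carcinomas had 0.12 and 0.10, the highest value of any autosome in each.

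**Figure D1:**
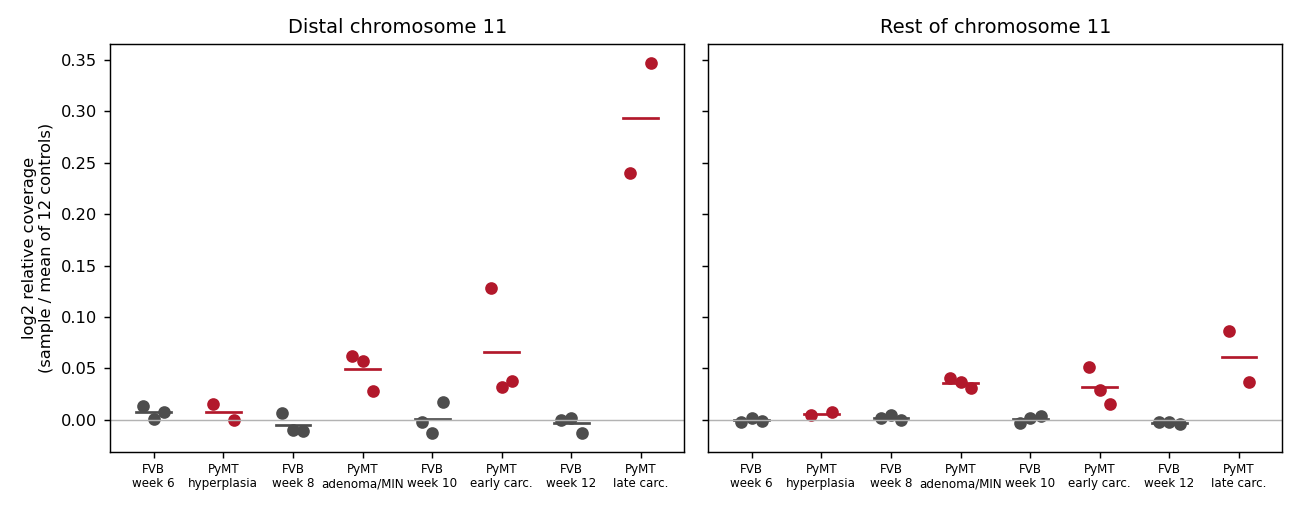
Relative coverage of distal chromosome 11 (left) and of the rest of the chromosome (right), without the 1% most covered positions, as the log2 ratio to the mean of the 12 FVB controls (vertical axis), by group (horizontal axis). Points are samples and bars are group means. The late carcinomas stand at 0.24 and 0.35 on the left and at 0.086 and 0.037 on the right.

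Within the region the 2 late carcinomas had different profiles. In replicate 1 coverage lay above the controls in each of the segments given here, in and before the region. Its log2 ratio was 0.11 from 8 to 2 Mb before the region and 0.16 over the last 2 Mb before it. Counted from the start of the region, it was 0.15 at 0 to 2 Mb, 0.17 at 2 to 6 Mb and 0.25 at 6 to 14 Mb. Replicate 1 was not raised in every bin. The bin at 2 to 4 Mb, with 172 positions, had 0.013 over all positions, within its controls at -0.20 to 0.16. In replicate 3 the ratio was 0.035 and 0.066 over the 2 segments before the region, above the controls, which reached 0.016 and 0.038. It was 0.021 and 0.019 at 0 to 2 and 2 to 6 Mb, within the range of the controls, and 0.40 at 6 to 14 Mb. The controls ranged from -0.0085 to 0.027 over that last segment. Early carcinoma replicate 1 had 0.14 there and the other early carcinomas 0.036 and 0.041.

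The rise in replicate 3 was a step. In windows of 250 kb its ratio was 0.019 from 6.75 to 7 Mb into the region and 0.41 from 7 to 7.25 Mb. At 7 to 8 Mb, which holds Grb2, Itgb4 (the hemidesmosome integrin) and the polarity gene Llgl2, it was 0.43, a ratio of 1.35, against 0.28 in replicate 1. A dip followed at 8 to 8.5 Mb, where replicate 3 had 0.11 and replicate 1 had 0.23. The dip holds Unc13d, Evpl, Galr2, Cdk3 and Foxj1. Its 100 kb windows had 0.26, 0.066, 0.061, 0.035 and 0.11 in replicate 3, against 0.29, 0.25, 0.26, 0.32 and 0.11 in replicate 1, so that in 3 of the 5 windows replicate 3 lay within the range of the controls.

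From 8.5 to 13 Mb replicate 3 was again at 0.44 and replicate 1 at 0.26. A narrower dip in replicate 3 lay at 12.3 to 12.5 Mb, with 0.11 in the window of Actg1 (a cytoplasmic actin) and Fscn2 and -0.075 in the window of Hgs, Nploc4 and Mrpl12, where replicate 1 had 0.19 and 0.24. The neighbouring windows of replicate 3 had 0.51 (Bahcc1) and 0.44 (P4hb, Arhgdia). The last Mb of the region held Foxk2, Tbcd, Zfp750 and Metrnl. There replicate 3 had 0.75, a ratio of 1.68, and replicate 1 had 0.18, a ratio of 1.13. All 5 windows of 100 kb with enough positions in the last Mb had 0.71 to 0.81 in replicate 3.

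**Figure D2:**
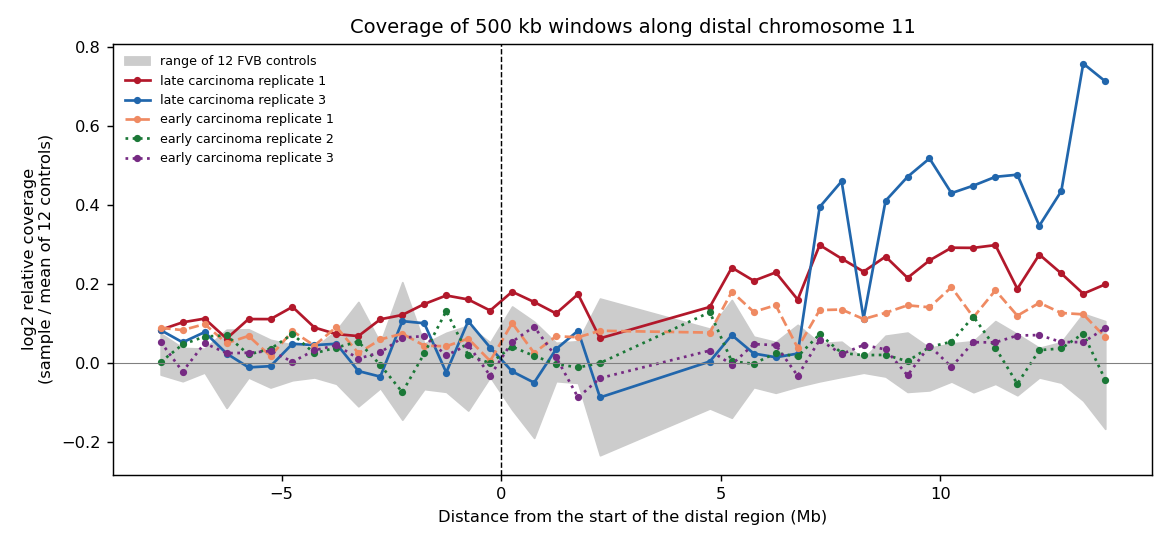
Relative coverage of 500 kb windows, without the 1% most covered positions, as the log2 ratio to the mean of the 12 controls (vertical axis), against the distance in Mb from the start of the region (horizontal axis; dashed line at 0). Lines are the late and early carcinomas, the grey band is the range of the controls, and windows with few positions are left out. Replicate 3 of late carcinoma steps up 7 Mb into the region and reaches its highest level in the last Mb. Replicate 1 is raised along much of the stretch.

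Coverage at late carcinoma was raised at positions of low, intermediate and high methylation. At 6 to 14 Mb, positions with a control methylation under 20% had log2 ratios of 0.22 and 0.39 in the late carcinomas, those of 20 to 80% had 0.31 and 0.39, and those over 80% had 0.33 and 0.45. Replicate 1 thus had a lower ratio at unmethylated than at methylated positions, and in replicate 3 the 3 classes lay closer together. Adenoma/MIN replicate 1 had 0.032, 0.23 and 0.29 in the same classes, a wide spread.

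In the fit of 1129 bins across the genome (limma, log2 coverage, PyMT against age-matched FVB), the bins starting 6, 8, 10 and 12 Mb into the region had differences of 0.30, 0.30, 0.36 and 0.35 at late carcinoma. These 4 of the 7 bins were the bins called higher in the genome (0.354% of 1129). Without the most covered positions 5 of 1126 were, 4 in the region and 1 on the rest of chromosome 11. With GC correction 11 of 1129 were, 5 of them in the region. Stratified by control methylation and CpG density 7 were, and without positions over 1000 reads also 7, each time with 4 in the region. This is the contrast that chose the region, and nothing is read from it. The bins just before the region had 0.053 and, next to its start, 0.11, and the bins just inside it, starting at 0, 2 and 4 Mb, had 0.078, -0.0087 and 0.10.

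The earlier stages were not used by the choice. In hyperplasia, adenoma/MIN and early carcinoma no bin of the region and no bin of the genome was called higher (0% of 1129 at each stage, limma, adjusted p under 0.05). At an unadjusted p under 0.05 by limma, 0, 0 and 3 of the 7 bins and 1, 17 and 14 of all 1129 were higher. Without the most covered positions 3 of the 7 bins, and 40 of 1126, were higher in adenoma/MIN by the same measure. The differences of the 7 bins ranged from 0.014 to 0.082 in early carcinoma, all above 0, and their median was 0.064 against -0.0066 over all bins. The smallest adjusted p-values of a bin of the region were 0.998 in hyperplasia, 0.449 in adenoma/MIN and 0.997 in early carcinoma.

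Coverage of single promoters followed the bins. At late carcinoma 88 of the 220 promoters had more coverage in both samples than in all 12 controls, against 1.53% of 15935 autosomal promoters, and 85 of the 88 lay beyond 6 Mb, where 195 promoters were measured. On the rest of chromosome 11 there were 39 of 1150. These counts come from the contrast that chose the region. In hyperplasia, adenoma/MIN and early carcinoma the counts were 1, 2 and 2 of 220, against 0.602%, 0.22% and 0.119% of all promoters. The median log2 ratio of the region's promoters was 0.32 at late carcinoma, 0.069 in early carcinoma, 0.075 in adenoma/MIN and 0.0041 in hyperplasia, beside 0.012, 0.0009, 0.030 and -0.016 over all promoters.

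The genes followed by name showed the 2 profiles. Birc5, which encodes the apoptosis inhibitor survivin, had promoter log2 ratios of 0.29 and 0.46 in late carcinoma replicates 1 and 3, above the control range of -0.18 to 0.21. Septin9, a cytoskeletal GTPase, had 0.28 and 0.44, above -0.093 to 0.12. Fasn, the fatty acid synthase, had 0.16 and 0.49, above -0.30 to 0.15, and Itgb4 had 0.20 and 0.41, above -0.24 to 0.18. In each of these promoters the ratio was larger in replicate 3. The Polycomb subunit gene Cbx2 had 0.18 and 0.44, above its controls. Grb2, the adaptor of receptor tyrosine kinases, had 0.13 and 0.51, and only replicate 3 lay above its controls, which reached 0.28. Cbx8 had 0.39 and 0.51 with controls up to 0.42. Before the step, Sox9, a transcription factor of progenitor cells, had 0.21 and -0.028, and Axin2, a target and inhibitor of Wnt signalling, had 0.16 and -0.036, so that replicate 3 lay within the controls at both.

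Methylation was lower in PyMT glands than in controls across the region at each stage. The mean over its 17443 positions was 24.97% ± 0.296 (SD, n = 2) in hyperplasia against 26.2% ± 0.213 (n = 3) in week 6 controls, and 25.2% ± 0.478 (n = 3) in adenoma/MIN against 26.3% ± 0.183 (n = 3) at week 8. It was 25.2% ± 0.279 (n = 3) in early carcinoma against 26.6% ± 0.0661 (n = 3) at week 10, and 25.2% ± 0.0308 (n = 2) in late carcinoma against 26.6% ± 0.0924 (n = 3) at week 12. Every PyMT sample lay below all of its age-matched controls. The differences were -1.26, -1.09, -1.33 and -1.41 points, beside -0.93, -0.85, -0.96 and -0.95 on the rest of chromosome 11 and -1.23, -1.24, -1.40 and -1.51 on the other autosomes. The differences lay between those of the rest of the chromosome and those of the other autosomes in adenoma/MIN, early and late carcinoma, and in hyperplasia the region's was the largest of the 3. Weighting each position by its reads gave 0.12 points in hyperplasia and -0.26 points in late carcinoma, and in such a mean the 28 positions of very high coverage hold 14.5% to 22.2% of the reads.

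The 7 bins differed from one another. In the limma fit of 1129 bins on percent methylation, 5, 4, 5 and 5 of the 7 bins were called lower in hyperplasia, adenoma/MIN, early and late carcinoma, against 81.9%, 81.9%, 83.3% and 82.9% of all bins. None of the 7 was called higher by limma at an adjusted or an unadjusted p under 0.05, against 1.77%, 3.28%, 3.99% and 4.61% of all bins at an adjusted p under 0.05. The share of bins called lower was near or below that of the genome.

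The bin at chr11:118000001-120000000, which holds Cbx2, Cbx8, Timp2, C1qtnf1 and Enpp7, had the largest differences of the 7 at every stage. They were -2.43 ± 0.358 points (SE) in hyperplasia, -2.50 ± 0.320 in adenoma/MIN, -2.97 ± 0.320 in early carcinoma and -3.97 ± 0.358 in late carcinoma (limma adjusted p = 4.1e-06, 2.3e-07, 1.0e-08 and 5.8e-10). The late carcinomas had 27.6% and 26.6% there, and the week 12 controls had 31.1%, 30.9% and 31.3%. The samples of the other stages lay between 27.7% and 29.2%, and the 12 controls between 30.4% and 31.3%, without overlap.

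The neighbouring bin at chr11:116000001-118000000, with Birc5, Tk1, Socs3 and Septin9, behaved otherwise. It differed by -0.67 points in hyperplasia (limma adjusted p = 0.0117), -0.27 in adenoma/MIN (adjusted p = 0.226), -0.46 in early carcinoma (adjusted p = 0.0448) and 0.18 in late carcinoma (adjusted p = 0.484). The late carcinomas had 24.2% and 24.5%, within or just above the week 12 controls at 24.0%, 24.1% and 24.4%. Both neighbours had similar coverage at late carcinoma, with log2 differences of 0.30 and 0.36.

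The bins at 4 to 6 Mb and at 6 to 8 Mb differed by -2.11 and -1.97 points at late carcinoma (limma adjusted p = 0.00175 and 4.7e-07), and the last bin by -0.81 points (adjusted p = 9.5e-04). The first bin differed by -0.41 points (adjusted p = 0.0634). The bin at 2 to 4 Mb, with 172 positions, differed by -1.62 points (adjusted p = 0.0293) and passed at no other stage.

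**Figure D3:**
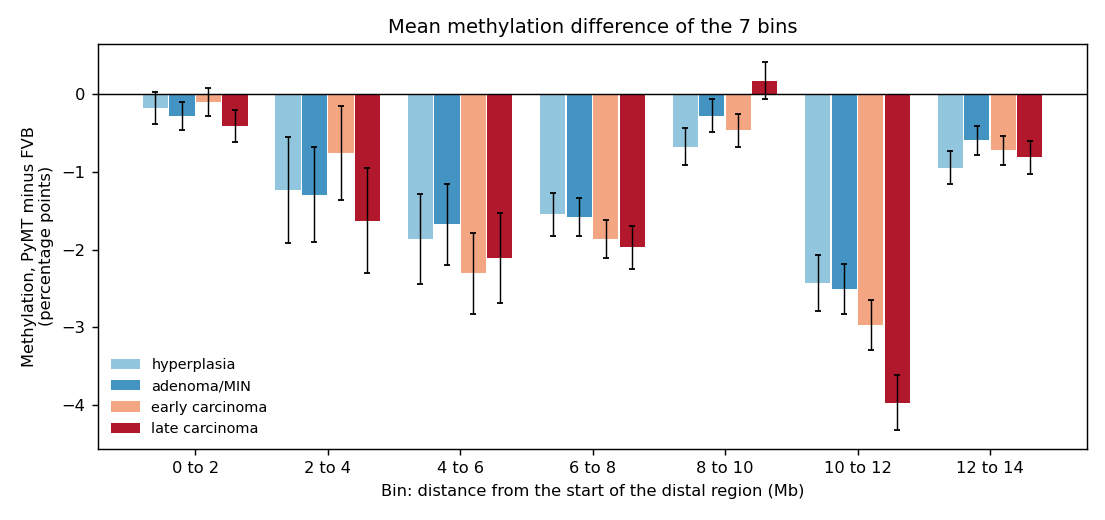
Difference of mean methylation, PyMT minus age-matched FVB, in percentage points (vertical axis), for the 7 bins of 2 Mb by distance from the start of the region (horizontal axis) and by stage. Error bars are the standard errors of the limma fit. The bin at 10 to 12 Mb shows the largest loss, up to -3.97 points, and the bin at 8 to 10 Mb has 0.18 points at late carcinoma.

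Promoter methylation was tested on the log2 ratio of methylated to unmethylated reads with 1 read added to each (limma, 16407 promoters, adjusted over all). In hyperplasia, adenoma/MIN, early and late carcinoma, 4, 17, 21 and 20 of the 220 promoters were called higher, which is 1.82%, 7.73%, 9.55% and 9.09% of them, against 2.18%, 7.12%, 8.94% and 9.11% of all promoters. Called lower were 17, 29, 31 and 26, which is 7.73%, 13.2%, 14.1% and 11.8%, against 3.97%, 5.72%, 8.48% and 6.73% of all promoters. The counts of higher promoters were thus near the background and those of lower promoters above it at each stage, beside 5.65%, 6.52%, 10.2% and 8.17% lower on the rest of chromosome 11. Of the 220 promoters, 75 share a position with another tested gene, so that they are not independent of each other. The median difference was -0.10, -0.021, -0.040 and -0.058 points, beside -0.046, 0.0078, 0 and -0.0030 points over all promoters.

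Most calls at late carcinoma were already present at an earlier stage. Of 24 promoters called higher at some stage 1, Notum, was called at late carcinoma alone, and of 37 called lower 1, Otop3, was. Called higher at all 4 stages were 3 promoters (Cygb, Sdk2 and Tmc8), and called lower at all 4 stages were 13, among them C1qtnf1, Cbr2, Cpsf4l, Enpp7, Fads6, Septin9, Unc13d and Zfp750. The shares of all promoters with the same patterns are not given here, so that these counts are not read as a trait of the region.

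Among the promoters called higher at late carcinoma, the largest difference was that of Gm39468, a predicted gene whose 6 covered positions lie at chr11:113785920-113785970, just before its start. Its methylation was 46.5% and 38.6% in the late carcinomas, and 6.75%, 20.3% and 14.1% in the week 12 controls. It differed by 28.8 points (limma adjusted p = 3.3e-04). Its values were 21.3% and 24.3% in hyperplasia, which did not pass (adjusted p = 0.314), and 27.3% to 44.1% in early carcinoma (adjusted p = 0.00161). All 6 positions were higher at late carcinoma, but the strands of the same CpG did not always move together. The difference was 48.27 points at 113785920 and 0.8475 at 113785921, its other strand. At 113785969 it was 0.2353 points and at 113785970, the other strand, 40.97. The cause of these strand differences was not tested. Npb, which encodes the peptide hormone neuropeptide B, had 50.9% and 59.0% in the late carcinomas against 28.0%, 26.2% and 29.4% in controls, a difference of 27.1 points (adjusted p = 3.3e-04), and the lowest of the 8 earlier PyMT samples was level with the highest of the 12 controls, at 31.6%. Ptchd3, of the Patched domain family, had 74.6% and 75.2% against 47.2%, 53.6% and 59.8%, a difference of 21.4 points (adjusted p = 0.00263). At Ptchd3 the adenoma/MIN samples had 70.3% to 77.6% (adjusted p = 0.00177) and the early carcinomas 61.1% to 72.1% (adjusted p = 0.591), so that its methylation did not follow the order of the stages.

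Foxj1, the transcription factor of motile cilia, had 23.1% and 21.7% at 51 positions in the late carcinomas against 6.11%, 7.40% and 8.85% in controls, a difference of 14.9 points (limma adjusted p = 1.4e-04). Its 8 earlier PyMT samples lay between 11.3% and 21.7% and its 12 controls between 6.11% and 9.49%. Tmc8, a transmembrane channel-like gene, had 20.4% and 27.1% at 43 positions against 6.41%, 5.02% and 6.82%, a difference of 17.7 points (adjusted p = 3.9e-06). Its positions did not move together: the difference of single positions ranged from -50.6 to 66.2 points. In the 2 kb upstream alone the log2 ratio fell by 3.80 at Tmc8 (limma adjusted p = 0.00116), so that its direction depended on the part counted. At Foxj1 it was -1.37 and did not pass (limma adjusted p = 0.493), so that no upstream direction is read. The Tmc8 positions at chr11:117780342-117781391 reached at most 4.545% in late carcinoma and 12.66% in week 12 controls. The Foxj1 positions at chr11:116335653-116336042 reached at most 1.724% and 2.051%. Mxra7 rose from 2.28%, 2.17% and 3.59% to 9.40% and 9.67% (adjusted p = 1.0e-04), Cep295nl by 20.2 points (adjusted p = 0.00784) and Myadml2 by 13.3 points (adjusted p = 0.00808). The Cep295nl call was lost without late carcinoma replicate 1, and the Myadml2 call without either late carcinoma.

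Among the promoters called lower, C1qtnf1, which encodes a secreted protein of the C1q and TNF family, had the largest difference. Its methylation was 15.6% and 25.1% in the late carcinomas and 60.6%, 58.7% and 57.4% in the week 12 controls, a difference of -38.6 points (limma adjusted p = 5.5e-06). Already in hyperplasia it was 15.6% and 15.3% (adjusted p = 1.1e-04), and the 10 PyMT samples lay between 14.9% and 25.1% while the 12 controls lay between 41.7% and 62.9%. The 17 positions were spread over several transcript starts, and 16 of them were lower. Cbr2, a carbonyl reductase, had 6.03% and 14.96% against 43.6%, 33.2% and 44.4% (difference -29.9 points, adjusted p = 6.5e-05), and all 5 of its positions were lower. Cpsf4l, a relative of a polyadenylation factor, had 14.2% and 29.1% against 44.2%, 47.8% and 50.7% (difference -25.9 points, adjusted p = 7.7e-05). At these 3 promoters hyperplasia was as low as late carcinoma replicate 3 or lower.

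At other promoters the mean was lowest at late carcinoma. Enpp7, the intestinal sphingomyelinase gene, had 80.5% and 75.8% in hyperplasia, 80.5%, 73.4% and 67.7% in adenoma/MIN, 71.9%, 65.3% and 73.1% in early carcinoma and 68.0% and 62.7% in late carcinoma, against 87.2% to 92.7% in the 12 controls. It passed at each stage (limma adjusted p = 0.0152, 6.2e-04, 5.7e-05 and 1.2e-05). 1700001J04Rik, at 4 positions, had 59.3% and 62.9% in late carcinoma against 81.0% to 94.0% in the 12 controls (adjusted p = 3.5e-05). The difference between late carcinoma and hyperplasia was itself tested at all promoters, and none of the 220 passed by limma, against 16 of 16407.

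The surroundings of Mir338 and Mir3065 had 59.4% and 49.3% (4 positions), and 53.7% and 40.8% (3 positions), in late carcinoma, against 82.0%, 79.0% and 85.9%, and 79.1%, 77.3% and 86.6%, in controls (limma adjusted p = 1.8e-04 and 1.1e-04). The 3 positions are the same for both, at chr11:120016714-120016743 inside Aatk, so that they are 1 observation. The promoter of Aatk, a kinase gene, with 70 positions that include them, had 52.6% and 44.3% against 39.8%, 41.2% and 39.5% (adjusted p = 0.247). Btbd17 had 34.5% and 34.2% against 58.2%, 50.1% and 61.9% (adjusted p = 0.00769), and its call was lost without either late carcinoma sample.

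**Figure D4:**
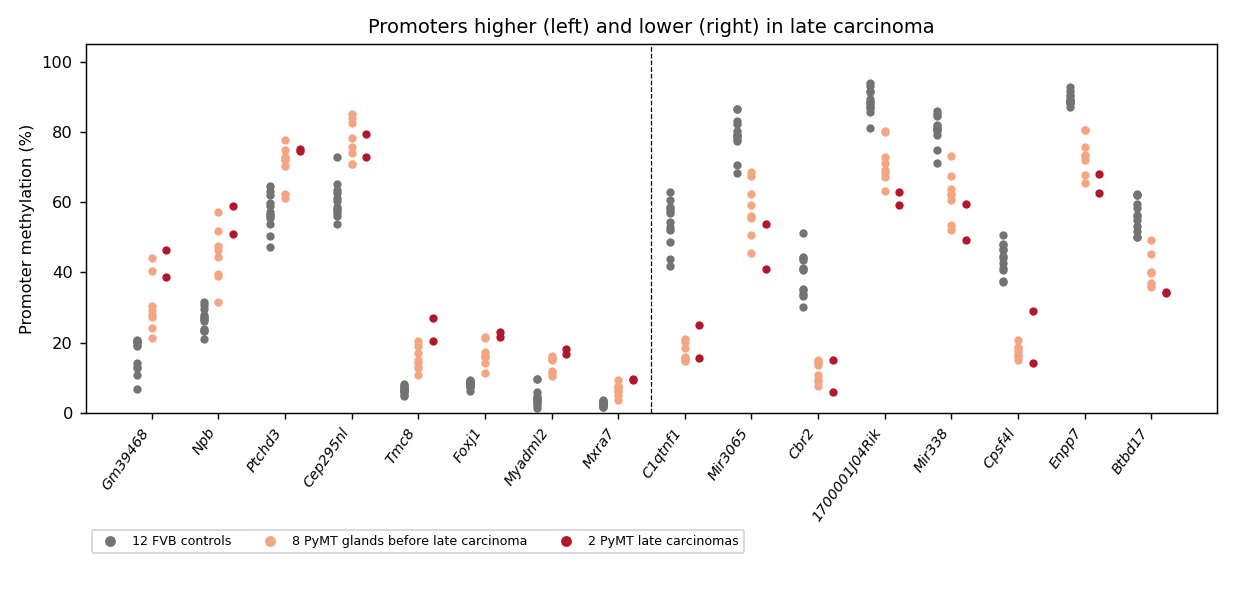
Promoter methylation in percent (vertical axis) of the 8 promoters with the largest higher and the 8 with the largest lower difference at late carcinoma (horizontal axis; dashed line between them). Points are samples, grey for the 12 FVB controls, orange for the 8 PyMT samples before late carcinoma and red for the 2 late carcinomas. At the lower promoters C1qtnf1, Cbr2 and Cpsf4l the earlier PyMT samples are already separate from the controls.

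The counts of the gene lists that follow stand beside 9.11% of all promoters called higher and 6.73% called lower at late carcinoma. Of 19 growth signalling promoters tested 1 was called higher at late carcinoma and 0 lower, and that was Notum, a Wnt-inactivating carboxylesterase, with 1.08% and 1.08% against 0.40% to 0.89% in the 12 controls (limma adjusted p = 0.0169). Llgl2 had 0.98% and 2.11% against 3.84%, 2.72% and 3.47% (adjusted p = 0.0664) and passed in early carcinoma (adjusted p = 0.00384). The small GTPase gene Rac3 and the cytokine feedback gene Socs3 had means of 4.98% against 6.36% (adjusted p = 0.37) and of 1.37% against 0.41% (adjusted p = 0.351). Of 16 promoters of proliferation and survival genes 2 were called lower and 0 higher. Tk1, the thymidine kinase of DNA replication, had 0.50% and 1.89% against 7.22%, 6.84% and 4.88% (adjusted p = 0.00378), a call that was lost without late carcinoma replicate 1 and whose sign turned within 500 bp of the start. Septin9 had 2.05% and 2.57% against 5.06%, 3.87% and 3.55% (adjusted p = 0.0122), also lost without that sample or without week 12 control replicate 1. Cdk3, here a transcribed pseudogene, had 63.3% and 67.9% against 49.6%, 58.3% and 52.9% (adjusted p = 0.0737), and passed in adenoma/MIN and early carcinoma (adjusted p = 0.0394 and 0.0306). Birc5 had 0.11% and 0.069% against 0%, 0.020% and 0.078% (adjusted p = 0.602), and Grb2 0.13% and 0.081% against 0.29%, 0.16% and 0.092% (adjusted p = 0.806). Both promoters were nearly free of methylation in all samples.

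Of 10 Polycomb and chromatin promoters none passed at late carcinoma in either direction by limma, and none did at the earlier stages. Cbx2 had 0.19% and 0.34% (adjusted p = 0.818) and Cbx8 22.3% and 23.0% (adjusted p = 0.931) in late carcinoma, against 0.23% to 0.67% and 20.9% to 21.4% in the week 12 controls. Bahcc1, a large promoter of 240 positions, had 0.26% and 0.89% against 0.33%, 0.13% and 0.086% (adjusted p = 0.098).

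Of 13 promoters of epithelial structure genes 3 were called lower, against 6.73% of all promoters, and 0 higher at late carcinoma, with a median difference of -1.19 points beside -0.0030 over all promoters. They were Evpl, a plaque protein of the epidermis, with 2.65% and 4.59% against 9.71% to 12.8% in the week 12 controls (limma adjusted p = 0.00273), Zfp750, a transcription factor of epidermal differentiation, with 19.4% and 36.6% against 45.1%, 46.0% and 42.7% (adjusted p = 0.0209), and Septin9. The early stages had 3, 4 and 6 lower. Zfp750 was lower in early carcinoma (7.30% to 13.9%) than in late carcinoma, and the late calls of Evpl and Zfp750 were lost without replicate 1, and that of Zfp750 also without week 12 control replicate 1. Fscn2, an actin-bundling gene of the retina, had 82.3% and 83.6% against 88.5%, 88.8% and 87.6% (adjusted p = 0.167). Of the luminal epithelial marker promoters given above, 7 of 10 were called lower at the same stage, and their part in these calls was not tested. Itgb4 had 0.59% and 0.44% against 1.28%, 0.85% and 1.48% (adjusted p = 0.269).

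Of 16 lipid and energy metabolism promoters 1 was higher and 2 were lower at late carcinoma. Metrnl, a secreted factor of fat and muscle, had 10.7% and 13.9% against 5.07% to 7.66% in the 12 controls (limma adjusted p = 0.00182). Sgsh, a lysosomal sulphatase, had 0.71% and 0.64% against 1.27% to 2.96% (adjusted p = 0.00171). Fads6, of the fatty acid desaturase family, had 8.45% and 9.003% against 19.2%, 18.1% and 19.6% (adjusted p = 2.8e-04) and was as low in hyperplasia, at 9.47% and 10.2%. Abca9, a transporter gene, had means of 41.6% and 27.9% in late carcinoma and controls (adjusted p = 0.22). Fasn had 0.32% and 0.18% against 0.26%, 0.16% and 0.25% (adjusted p = 0.993).

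Of 10 promoters of a list drawn up for developmental regulators 3 were higher (Foxj1, Notum and Rbfox3) and 3 lower (Btbd17, Sox9 and Zfp750). Foxj1, Sox9 and Zfp750 encode transcription factors, while Notum encodes a secreted enzyme and Rbfox3 a splicing factor. Sox9 had 0.26% and 0.62% against 1.01%, 1.54% and 1.14% (limma adjusted p = 0.036), and the call was lost when any of 4 single samples was left out. Axin2 had 1.58% and 1.499% against 1.79%, 1.73% and 1.78% (adjusted p = 0.894). Of 16 neural and sensory promoters 5 were higher and 2 lower, against 9.11% and 6.73% of all promoters. The higher ones were the globin gene Cygb, the adhesion gene Sdk2, the glycosyltransferase gene Mgat5b, the pentraxin gene Nptx1 and the neuronal splicing factor gene Rbfox3. Cygb had 4.77% and 5.88% against 0.88% to 1.49% in the 12 controls (adjusted p = 2.8e-05), and Sdk2 2.43% and 2.82% against 0.64% to 0.97% (adjusted p = 1.8e-04). The lower ones were Unc13d, a gene of granule secretion, with 1.98% and 4.97% against 21.1%, 12.3% and 15.9% (adjusted p = 0.00304), and the proton channel gene Otop3 (adjusted p = 0.0266). Without late carcinoma replicate 1 the call of Unc13d was lost, and that of Otop3 was lost when any of 4 single samples was left out. Of 8 leukocyte promoters Tmc8 was higher and Unc13d lower, and Cd300a, an inhibitory receptor, had 64.8% and 49.8% against a mean of 48.4% (adjusted p = 0.369). The medians of these 8 lists at late carcinoma lay between -1.19 and 0.26 points. The called genes of the lists that lie outside the rule for named genes were named after their values were seen.

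Single CpG positions were called differentially methylated (DMCs) at a q-value under 0.01 in a likelihood ratio test on reads and a difference of at least 10 points. In hyperplasia, adenoma/MIN, early and late carcinoma, 638, 830, 993 and 1057 of the 17443 positions were hypermethylated, which is 3.66%, 4.76%, 5.69% and 6.06%, against 2.62%, 3.2%, 4.39% and 4.44% of all positions. Hypomethylated were 1293, 1408, 1681 and 1773, which is 7.41%, 8.07%, 9.64% and 10.2%, against 6.01%, 7.1%, 8.42% and 8.54%. Both shares lay above those of all positions and of the rest of chromosome 11, which had 4.66% and 7.40% at late carcinoma. The test counts reads, and the region's mean coverage in PyMT samples was 70.3, 74.5, 81.6 and 90.0 reads by stage, beside 74.4, 75.5, 75.6 and 73.6 in the controls. The part of coverage in these counts was not tested. The mix of positions also differed, and its part was not tested. Of the region's positions 57.2% lay in promoters, against 64.4% on the rest of chromosome 11 and 60.9% on the other autosomes. Neighbouring positions share reads and are not independent.

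Most DMCs of the region lay outside promoters. At late carcinoma 1.91% of the 9968 promoter positions were hypermethylated and 2.26% hypomethylated, against 11.6% and 20.7% of the 7475 other positions. At all 4 stages 349 positions were hypermethylated, of 1582 that were at some stage, and 753 of 2508 were hypomethylated. The same shares over all positions of the genome are not given here. Neither the split by promoter nor the persistence is therefore read as a trait of the region. By bin, hypomethylated positions took the largest share of the bins at 4 to 6 and 10 to 12 Mb, at 16.4% and 16.1% in late carcinoma, and the smallest of the last bin, at 5.59%. In the bin at 8 to 10 Mb 9.33% were hypermethylated and 8.69% hypomethylated, and it was, with the first bin (6.65% and 5.98%), where hypermethylated positions were the more frequent.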

How the data were processed

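The authors aligned ERRBS reads to mm10 with Bismark, of which the version is not given in the sources used here. For each sample they deposited the count of reads (coverage) at each CpG cytosine with at least 10 reads, not normalized and with the strands apart. They also deposited the percent of those reads read as cytosine (methylated) and as thymine. The paper's methods state that 2 outliers were removed, without naming them. Samples were grouped by their labels.

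Positions covered in all 22 samples were used, and methylated reads were recovered as coverage times percent, rounded. Relative coverage of a bin (2 Mb, at least 100 positions) was its share of autosomal reads. GC content and CpG density were not corrected in the main values, so that differences in library composition can move them. Methylation of a bin was the mean percent over positions, so that deeply covered positions do not dominate. A promoter was the 2 kb on each side of a curated RefSeq start, with at least 3 positions, and 1 read was added to its methylated and unmethylated reads. Groups of all stages were fitted together by limma 3.58.1 (R 4.3.3) with Benjamini-Hochberg adjustment over all bins or promoters, at an adjusted p under 0.05. Positions were tested by a likelihood ratio on read counts (q under 0.01, at least 10 points), which treats reads and not mice as replicates. Mice are separate samples by their labels. The precision of each percent is set by its coverage, of which the mean was 60.2 to 79.2 reads per sample.

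The fits were tested on simulated data. The members, lists and rules were chosen with earlier results of these data known. Promoters named were the 8 higher and 8 lower with the largest difference at late carcinoma among those called and not overlapping week 12 controls, the 3 with the largest difference in each of 8 gene lists, and 10 genes named in advance, among them Grb2, Birc5, Septin9, Sox9, Axin2, Fasn, Itgb4, Cbx2 and Cbx8. Some genes that this rule names are not reported here. Alternatives were other coverage summaries, GC correction, 1 Mb bins, other promoter windows, untransformed percent, a minimum of 20 reads, a minimum difference of 25 points, an overdispersion correction, a replicate block and leaving out each sample. The tools were matplotlib 3.10.9, statsmodels 0.14.6, pandas 2.3.3, NumPy 2.4.6 and SciPy 1.17.1, run under Python 3.11.15.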

Additional observations from a re-analysis of the deposited data

Results flagged for a closer look

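The methylation difference of the bin at chr11:118000001-120000000 was larger in late carcinoma than in hyperplasia, -3.97 against -2.43 points, each against age-matched controls. The difference between them was -1.54 points (SE 0.507, limma adjusted p = 0.0294). Of the 7 bins of the region this was the only one past the threshold in that test, beside 264 of all 1129 bins. No promoter of the region passed it by limma (0 of 220, beside 16 of 16407). Groups of 2 or 3 mice are too small for the check of single outlying samples.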

How the results depend on the processing

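Each stage rests on 2 or 3 PyMT mice, and where 1 is left out of a pair the other is assumed to vary like the remaining groups. A value of the whole region was taken as moved when it shifted by more than the pooled spread between samples of a group (0.0345 on the log2 scale for coverage, 0.251 points for methylation). The mean log2 relative coverage of late carcinoma, 0.25, was 0.29 as a median of position ratios, 0.29 without the 1% most covered positions and 0.29 without positions over 1000 reads, the last chosen after seeing the data. It was 0.22 to 0.29 with single samples left out. In bins of 1 Mb, 7 bins were called higher in coverage at late carcinoma. Late carcinoma coverage chose the region, so these values describe it and say nothing of stability. Weighting positions by reads gave mean methylation differences of 0.12 points in hyperplasia, a reversal, -0.31 in early and -0.26 in late carcinoma. Leaving out samples gave -1.37 to -0.95 points in adenoma/MIN, the first without its replicate 1, and 3 to 5 bins with lower methylation in hyperplasia, 3 without its replicate 2.

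Promoter counts depended on the window, which also set how many promoters could be tested. With the 2 kb upstream alone 166 promoters were tested. Of these 1, 7, 8 and 10 were called higher and 9, 18, 20 and 18 lower in hyperplasia, adenoma/MIN, early and late carcinoma. With 500 bp on each side 198 were tested, and 1, 11, 13 and 14 were higher and 8, 13, 15 and 13 lower. The shares of all promoters with these windows are not given, so the comparison with the background stands for the main window alone. Untransformed percent gave 7 higher and 26 lower in hyperplasia. Leaving out samples gave 0 to 4 higher and 7 to 15 lower in hyperplasia (0 and 7 without its replicate 1, 2 higher without week 6 control replicate 2), 11 to 18 higher in adenoma/MIN (11 without its replicate 2) and 13 to 25 lower in late carcinoma (13 without its replicate 1). The log2 ratio turned to -3.80 at Tmc8 and -1.37 at Foxj1 upstream alone, and to -0.39 at Foxj1 and 0.44 at Tk1 within 500 bp. The upstream value of Foxj1 did not pass. The cause of these changes was not tested.

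DMC counts fell with a stricter rule. At 25 points or more 280, 362, 455 and 557 positions were hypermethylated and 641, 640, 886 and 980 hypomethylated by stage, and with an overdispersion correction 242, 362, 568 and 649, and 562, 654, 1110 and 1080. Counts over all positions of the genome under these rules are not given. Leaving out samples gave 377 to 613 hypermethylated positions in hyperplasia, 377 without its replicate 1.

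Replicate numbers are shared across groups. Deviations of same-numbered samples correlated above 0.1 in 3 of 10 pairs for coverage (-0.399 to 0.668). These were both hyperplasia pairs, at 0.668 and 0.511, and early carcinoma replicate 2, at 0.162. For promoters 0 of 10 pairs did (-0.0215 to 0.0532). The labels do not say what samples of the same number share, and a shared batch was not tested. With the replicate block 5 bins were called lower in methylation at late carcinoma, and 20 promoters higher and 25 lower, and among the named promoters the call of Sox9 was lost.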
